A study of Mus musculus with 4 samples.

Results

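The 10 sarcomere genes described here were chosen by symbol among the 27998 genes counted in right ventricle (RV) nuclei of mice at P21. They are Myh6, Myh7, Myh7b, Mhrt, Tnni1, Tnni3, Actc1, Acta1, Myl7 and Myl4, and all 10 were found once. Myh7 with Myh6, Tnni1 with Tnni3 and Acta1 with Actc1 pair a fetal or skeletal muscle isoform with that of the adult ventricle. Myl7 and Myl4 are atrial and were paired with the ventricular Myl2 and Myl3, which are not among the 10. Myh7b was set against Myh6, and Mhrt, a non-coding RNA, against Myh7. Each pair was described as a share of unique molecular identifiers (UMIs, each a counted transcript) in nuclei with at least 1% of their UMIs from Ryr2, the calcium release channel of cardiomyocytes (CMs). These are called Ryr2-rich nuclei. Nuclei with under 0.2% Ryr2 are called Ryr2-poor and served as a measure of free RNA, the transcripts that enter a droplet from solution.

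The sarcomere is built from myosin and actin filaments, and its regulatory proteins occur as isoforms that change as the heart matures. In mice, the ventricle moves around birth from Myh7 (beta myosin heavy chain, slow) to Myh6 (alpha, fast), and in the weeks after birth from Tnni1 (slow skeletal troponin I) to Tnni3 (cardiac troponin I). Under load or failure, adult rodent ventricles are known to express Myh7 and Acta1 (skeletal alpha actin) again. Myh7b is an ancient myosin heavy chain gene, and Mhrt is a cardiac long non-coding RNA antisense to Myh7.

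The mice were WT, of the strain C57/BL6J, and were operated on at P7. RV volume overload (RVVO) was produced by a fistula between the abdominal aorta and the inferior vena cava, and controls had a sham operation. There were 2 sham and 2 RVVO libraries, all collected at P21 from frozen RV tissue and made from nuclei with the 10x 3′ v3 chemistry. The study asked whether RVVO brings CMs back to division and a less mature state. How many mice went into each library is unknown here, so p-values measure only the spread between libraries, which may be technical.

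The 3 myosin genes of the list carry microRNAs in their introns. The mature sequences are shown because counts of nuclear RNA over these genes include the transcripts in which the microRNAs lie. Capitals mark the seed, bases 2 to 8. Sequences and positions are from RefSeq for GRCm38.p6, and the microRNAs themselves were not measured.
mmu-miR-208a-3p: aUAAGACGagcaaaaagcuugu
mmu-miR-208b-3p: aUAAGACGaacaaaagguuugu
mmu-miR-499-5p: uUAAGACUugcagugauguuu
The first is hosted by Myh6 (chr14:54949072-54949093, minus strand), the second by Myh7 (chr14:54975710-54975731, minus strand) and the last by Myh7b (chr2:155622893-155622913, plus strand). All 3 hairpins overlapped no exon and lay on the strand of their host. The miR-208a-3p and miR-208b-3p sequences share 7 of 7 seed bases and 19 of 22 bases in all, whereas miR-499-5p shares 6 seed bases with miR-208a-3p.

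Myh6, Myh7 and Mhrt form a single locus on chromosome 14 of GRCm38. Myh6 lies at 54941921 to 54966927 and Myh7 at 54970684 to 54994626, both on the minus strand, with 3756 bases between the start of Myh6 and the end of Myh7. Mhrt, on the plus strand at 54968678 to 54974349, starts 1751 bases from the start of Myh6 and overlaps the 3′ end of Myh7 by 3666 bases. These are GENCODE positions, and the RefSeq start sites of Myh6 and Mhrt used below differ from them. The promoters of Myh6, Myh7 and Mhrt are shown for reference, each with 250 bases before and 50 after a RefSeq start site. Whether their motifs bear on the levels below was not tested. Capitals mark CATTCC, the core of the M-CAT element bound by TEAD factors, and TATAAA, the TATA box, on either strand.
Myh6 (chr14:54966558-54966857, minus strand): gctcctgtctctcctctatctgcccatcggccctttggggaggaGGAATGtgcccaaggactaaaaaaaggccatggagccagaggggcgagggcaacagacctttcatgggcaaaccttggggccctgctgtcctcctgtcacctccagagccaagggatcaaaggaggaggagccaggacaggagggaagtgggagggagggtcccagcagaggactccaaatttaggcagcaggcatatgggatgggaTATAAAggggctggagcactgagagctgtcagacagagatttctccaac
Myh7 (chr14:54994577-54994876, minus strand): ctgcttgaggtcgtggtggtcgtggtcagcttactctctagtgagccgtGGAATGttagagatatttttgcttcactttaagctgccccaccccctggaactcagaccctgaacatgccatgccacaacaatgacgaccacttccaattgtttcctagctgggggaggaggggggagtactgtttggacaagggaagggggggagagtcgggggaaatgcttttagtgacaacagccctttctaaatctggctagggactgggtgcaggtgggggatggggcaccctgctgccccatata
Mhrt (chr14:54968537-54968836, plus strand): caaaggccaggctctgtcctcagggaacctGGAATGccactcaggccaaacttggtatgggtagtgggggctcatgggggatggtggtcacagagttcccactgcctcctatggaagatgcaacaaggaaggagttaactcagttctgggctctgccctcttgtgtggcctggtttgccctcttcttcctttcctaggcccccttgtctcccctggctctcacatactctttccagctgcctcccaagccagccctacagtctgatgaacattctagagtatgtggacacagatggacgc
An M-CAT core began at -206 in Myh6, at -201 in Myh7 and at -220 in Mhrt, counted from the listed start site, and a TATA box at 1 in Myh6. The second listed start site of Myh7 had neither motif in its window. Among the promoters of the other members, Acta1 and Myl7 had an M-CAT core, Acta1 and Actc1 a TATA box, and Actc1, Acta1 and Myl7 a CArG box, which serum response factor binds. The nuclear receptor half-site AGGTCA was found only in Myh7b. None of the matches overlapped one another. Of 32851 RefSeq promoters of the same length, 14.7% held CATTCC, 13.6% TATAAA, 1.63% a CArG box and 16.3% AGGTCA on either strand.

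Myh7b lies on chromosome 2 at 155611212 to 155634307 and Actc1 on the same chromosome at 114047282 to 114053548. Tnni1 lies on chromosome 1 at 135779434 to 135810989, Tnni3 on chromosome 7 at 4518305 to 4524229 and Acta1 on chromosome 8 at 123891769 to 123894751. Myl7 and Myl4 lie on chromosome 11, at 5896637 to 5898782 and at 104550663 to 104595753. Whether counting used strand is unknown here, so reads of Myh7 and Mhrt in their shared 3666 bases cannot be told apart if strand was not used. The same holds for Acta1, which lies whole within Gm20388 on the other strand. Tnni3 shares 1297 bases with Dnaaf3 on its own strand. Myh6 with Myh7, and Actc1 with Acta1, are close paralogs, and their split is uncertain to the extent that reads match both.

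The libraries sham 1, sham 2, RVVO 1 and RVVO 2 held, in that order, which all later lists of 4 values keep, 15568, 15430, 8700 and 13392 barcodes and 51010039 to 64739206 UMIs. After filters on genes, mitochondrial UMIs and doublets, 2309, 2798, 2705 and 3708 nuclei were Ryr2-rich and 6464, 7133, 3713 and 6140 were Ryr2-poor. Ryr2-rich nuclei were 20.2%, 21.8%, 35.3% and 33.0% of those kept, and 358 to 1103 nuclei per library lay between 0.8% and 1.2% Ryr2. Their median depth was 4779, 4812, 8446 and 4827 UMIs, against 2199, 2028, 3759 and 2705 in Ryr2-poor nuclei. At most 70 barcodes occurred in both libraries of a pair. In Ryr2-rich nuclei all 8 CM markers were found and Ttn, the titin gene, had 20100 to 22190 CPM (UMIs of a gene per 1000000 UMIs of the same nuclei), while the skeletal muscle myosin genes Myh1 and Myh4 had 0 UMIs. At least 3 UMIs of endothelial, fibroblast or macrophage markers occurred in 17.6%, 14.4%, 42.9% and 41.5% of Ryr2-rich nuclei. The summed macrophage markers had 31.7, 28.4, 208 and 73.2 CPM in them, and the fibroblast markers 202, 195, 366 and 400 CPM. Their part in the results was not tested beyond leaving such nuclei out. Xist, the female X-linked transcript, was found in both sham libraries and was close to 0 in both RVVO libraries, and the Y-linked Uty showed the opposite, so the effects of sex and of surgery cannot be told apart in what follows.

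Myh6 was by far the most counted of the 10 genes in Ryr2-rich nuclei. It had 11971, 9862, 11009 and 9805 CPM, from 155544, 158086, 327235 and 214628 UMIs. The sham mean was 10916 ± 1491 CPM and the RVVO mean 10407 ± 851 CPM (SD, n = 2). The values of both groups overlapped, with sham 1 highest and RVVO 2 lowest.

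Myh7, the fetal partner of Myh6, had 409, 365, 405 and 382 CPM. Its UMIs numbered 5309, 5853, 12048 and 8351. The sham mean of 387 ± 30.7 CPM and the RVVO mean of 393 ± 16.8 CPM differed by less than the spread between libraries. Mhrt had 1485, 1529, 1573 and 1332 CPM, with RVVO 1 highest and RVVO 2 lowest. Myh7b had 206, 285, 238 and 266 CPM, with both RVVO libraries between the sham libraries.

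Tnni3 had 1286, 972, 832 and 1130 CPM and Actc1, the cardiac alpha actin gene, had 950, 536, 707 and 898 CPM. In both genes the values of the groups overlapped, and the SD within each group was larger than the difference between the group means. Tnni1, the fetal troponin I, was all but missing, with 0, 2, 2 and 2 UMIs in the Ryr2-rich nuclei of the 4 libraries. The absence in sham 1 allows a level of up to 0.231 CPM, the value of 3 UMIs. Acta1 had 71, 60, 144 and 42 UMIs, or 5.46, 3.74, 4.84 and 1.92 CPM. RVVO 2 had the lowest level, and RVVO 1 lay between the sham libraries.

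The atrial light chains varied most between libraries. Myl7, the atrial regulatory light chain, had 4, 243, 110 and 705 UMIs, or 0.308, 15.2, 3.70 and 32.2 CPM. Myl4, the atrial essential light chain, had 1.85, 34.6, 11.7 and 59.9 CPM. Both genes had the same order, RVVO 2 above sham 2, RVVO 1 and sham 1, and this order interleaved the groups. Levels are given as CPM and not per length, and are compared between libraries and kinds of nuclei, not between genes.

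**Figure D1:**
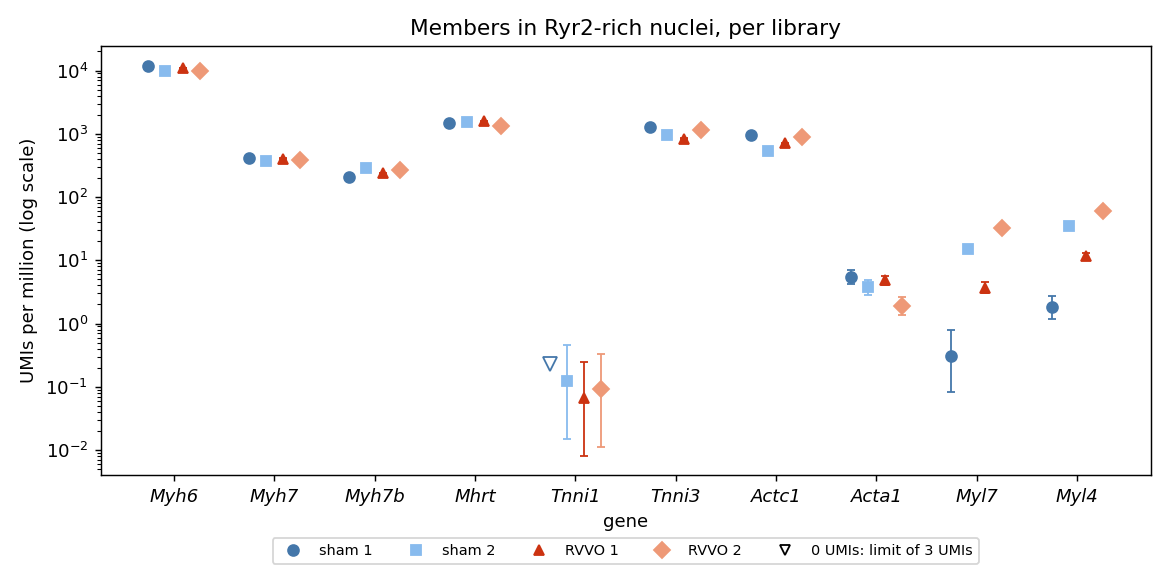
CPM (log axis) of the 10 genes in Ryr2-rich nuclei, 1 point per library, with 95% Poisson intervals that cover counting error only. The groups overlap for every gene, Myl7 runs from 0.308 to 32.2 CPM across libraries, and the open triangle gives the limit of 0.231 CPM for Tnni1 in sham 1, where no UMI was counted.

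The level in Ryr2-poor nuclei divided the genes sharply. Myh7, Mhrt and Myh7b were much lower there, whereas Myh6 was only modestly lower and the other measured members were at least as high as in Ryr2-rich nuclei. Myh7 had 10.7, 11.4, 10.9 and 11.1 CPM in Ryr2-poor nuclei, so the Ryr2-rich level was 38.3, 32.1, 37.1 and 34.3 times as high. For Mhrt this ratio was 34.6, 39.1, 38.9 and 53.4, and for Myh7b it was 21.2, 17.6, 20.2 and 24.4. Ryr2 itself, which set the split, had ratios of 22.8 to 25.7. A high ratio of Ryr2 follows from the limits of the split, so this range is given as a description only.

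Myh6 had 8944, 5579, 6015 and 5658 CPM in Ryr2-poor nuclei, and its ratio was 1.34, 1.77, 1.83 and 1.73. The ratios of Tnni3 were 0.716, 0.873, 0.733 and 0.788, those of Actc1 0.691, 0.823, 0.754 and 0.950, and those of Acta1 0.504, 0.782, 0.636 and 0.805. Myl4 ranged from 0.313 to 0.864 and Myl7 from 0.258 to 0.544. For these 5 genes the Ryr2-poor nuclei thus had the higher level in each of the 4 libraries. Myl2 and Myl3, the ventricular light chains that served as denominators, did the same, at 0.661 to 0.806 and 0.596 to 0.721.

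**Figure D2:**
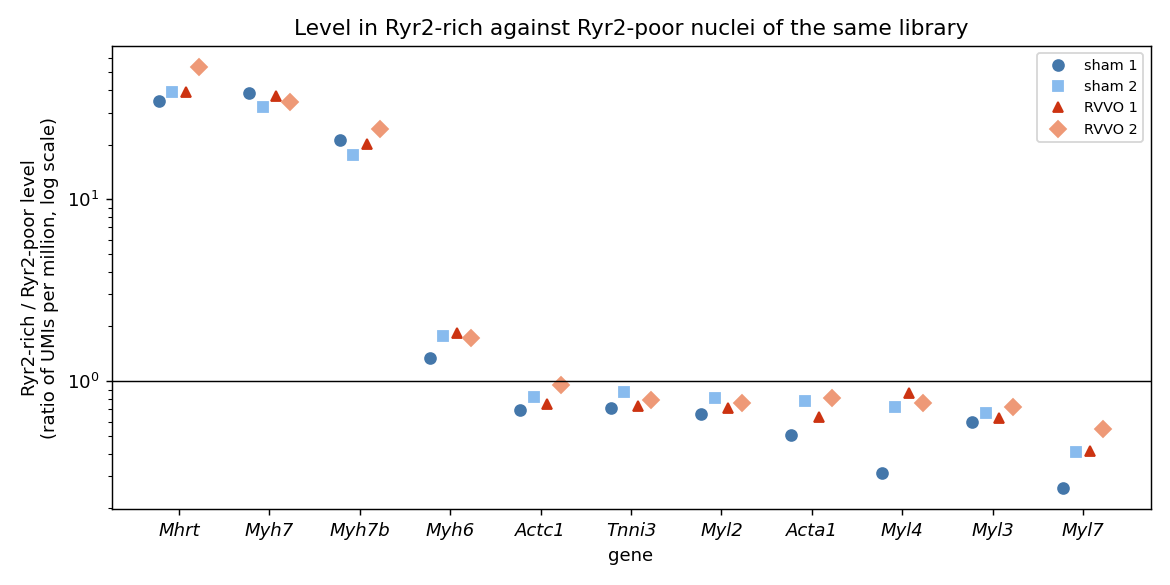
Level in Ryr2-rich nuclei divided by that in Ryr2-poor nuclei of the same library (ratio of CPM, log axis), 1 point per library. Mhrt, Myh7 and Myh7b lie between 17.6 and 53.4, Myh6 between 1.34 and 1.83, and the remaining genes shown lie under the line at 1.

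Levels of Myh6, Tnni3 and Actc1 were of the same order in nuclei with the markers of different lineages, though not equal. In endothelial-marker nuclei Myh6 had 8715, 5799, 6420 and 5961 CPM, and in fibroblast-marker nuclei 7790, 4575, 5690 and 5459 CPM. Tnni3 had 1759, 1169, 1223 and 1530 CPM in the first and 1550, 913, 1062 and 1390 CPM in the second. Actc1 followed with 1346, 686, 1016 and 1010 CPM in endothelial-marker nuclei and 1184, 539, 863 and 905 CPM in fibroblast-marker nuclei. In macrophage- and pericyte-marker nuclei Tnni3 had 835 to 1697 CPM. Mean Myh6 in these 2 kinds was 6796 and 6793 CPM in the sham libraries and 4774 and 5892 CPM in the RVVO libraries. Myh7 had 5.22 to 13.2 CPM in these nuclei, on only 4 to 23 UMIs per library and lineage, too few to compare lineages. Within each library the endothelial-marker nuclei thus held somewhat more Myh6, Tnni3 and Actc1 than the fibroblast-marker nuclei. Sham 1 was highest in these genes in both lineages.

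Expressed per nucleus, a Ryr2-poor nucleus held 1.26%, 1.26%, 1.12% and 1.62% of the mean Myh7 UMIs of a Ryr2-rich nucleus. It held 36.2%, 22.9%, 22.7% and 32.0% of its Myh6 UMIs, 67.6%, 46.3%, 56.6% and 70.5% of its Tnni3 UMIs and 70.0%, 49.1%, 55.0% and 58.5% of its Actc1 UMIs. For Myl7 the shares were 188%, 99.3%, 101% and 102%, so the 2 kinds of nuclei held about the same number, apart from sham 1 with 4 UMIs in its Ryr2-rich nuclei. Per nucleus, the level in Ryr2-poor nuclei thus came to at least 46.3% of that in Ryr2-rich nuclei for Tnni3, Actc1, Acta1, Myl7 and Myl4, and to at most 2.30% for Myh7, Mhrt and Myh7b. Ryr2-poor nuclei were also shallower, as given above.

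The share of nuclei with a UMI showed the same division after each nucleus was thinned to 1000 UMIs. Myh7 was found in 30.8%, 28.5%, 34.7% and 31.3% of Ryr2-rich nuclei and in 1.16%, 0.943%, 1.16% and 1.06% of Ryr2-poor nuclei. Mhrt was found in 72.4%, 74.1%, 77.6% and 71.6% of the first and 4.20%, 3.13%, 4.01% and 2.51% of the second. Myh6 was found in nearly every nucleus of both kinds, from 98.5% to 99.7% of the Ryr2-poor nuclei. Actc1 was found in 65.5%, 43.4%, 57.0% and 63.5% of Ryr2-rich nuclei, below the 75.3%, 48.6%, 64.9% of Ryr2-poor nuclei in the first 3 libraries and next to 63.3% in RVVO 2. Thinning left out 64, 128, 1 and 0 Ryr2-rich nuclei and 510, 878, 19 and 0 Ryr2-poor nuclei. Without thinning, 26.1%, 27.7%, 8.69% and 20.3% of Ryr2-rich nuclei had no Myh7 UMI, lowest in RVVO 1, whose nuclei were the deepest.

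The level changed along the Ryr2 share in ways that differed between genes. Myh7 had 10.3, 16.6, 26.9 and 13.4 CPM in nuclei with no Ryr2 UMI, from 19, 34, 13 and 34 UMIs, and was lower, at 7.8 to 8.7 CPM, in those with over 0 to 0.1% Ryr2. From there it was higher in each next bin, through 44.1 to 91.5 CPM at 0.2% to 0.5%, to 366 to 414 CPM at 1% to 2%. At 2% to 4% Ryr2 it had 396 and 366 CPM in sham 1 and sham 2, no higher than at 1% to 2%, and 453 and 395 CPM in RVVO 1 and RVVO 2, against 377 and 379 CPM at 1% to 2%. Among nuclei with under 4% Ryr2, Myh6 was instead highest at an intermediate share in the sham libraries, at 16681 CPM at 0.2% to 0.5% in sham 1 and 12271 CPM at 0.5% to 1% in sham 2. In the 84 nuclei of sham 2 with 4% Ryr2 or more it had 12748 CPM. Tnni3 peaked in the same range, at 3290 CPM in sham 1 and 2029 CPM in sham 2, and in RVVO 1 it was lowest at 0.5% to 1%, with 491 CPM. Actc1 was also lowest in that bin of RVVO 1, with 415 CPM. The bin held 5659401 UMIs in 309 nuclei there, against 1627446 UMIs in 633 nuclei in sham 1, so its nuclei were far deeper. Nuclei between the 2 limits, 0.2% and 1%, entered neither kind.

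**Figure D3:**
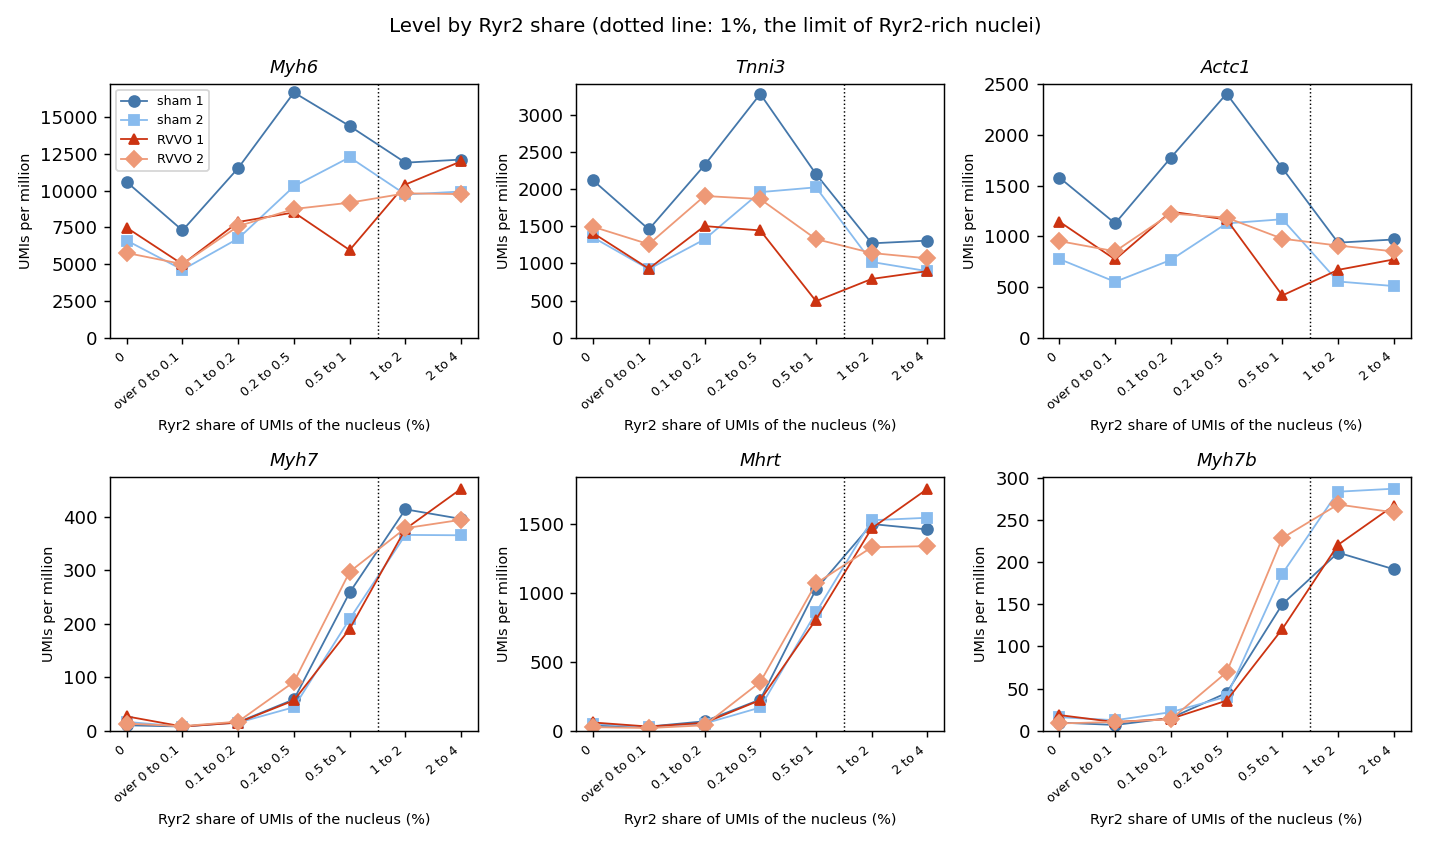
CPM by the Ryr2 share of the nucleus for 6 genes, 1 line per library; the bin of 4% and more, with 5 to 84 nuclei per library, is not drawn. From the bin of over 0 to 0.1% Ryr2 on, Myh7, Mhrt and Myh7b climb toward the dotted line at 1%, while Myh6, Tnni3 and Actc1 are high in all bins, with the highest points, up to 16681 CPM for Myh6, in the intermediate bins of sham 1.

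Myh7 made up a small share of the Myh6 and Myh7 UMIs in every library. It was 3.30%, 3.57%, 3.55% and 3.75% in Ryr2-rich nuclei. The 95% Wilson intervals, which like all intervals on counts here cover counting error only, ran from 3.21% to 3.39% in sham 1 and from 3.67% to 3.82% in RVVO 2. The sham mean was 3.44% ± 0.191 and the RVVO mean 3.65% ± 0.137 (SD, n = 2; exact two-sided permutation test, p = 0.6667, adjusted p = 0.9333 over 7 shares). RVVO 1 lay below sham 2, so the groups overlapped. A comparison of 2 libraries with 2 cannot reach a p below 0.3333 in this test. The shares are of 3′ UMIs, not scaled for length, and serve only to compare libraries.

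In Ryr2-poor nuclei the Myh7 share was 0.119%, 0.204%, 0.181% and 0.196%. When the mean UMIs per Ryr2-poor nucleus of the same library were subtracted, the share in Ryr2-rich nuclei became 5.01%, 4.52%, 4.5% and 5.33%. The subtraction raised the share in every library and changed the order, with sham 1 moving from lowest to second highest. The groups still overlapped.

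The Myh7 share was low in most single nuclei. Among Ryr2-rich nuclei with at least 20 UMIs of the pair, the median Myh7 share was 2.70%, 3.23%, 3.28% and 3.33%, and the 95th percentile 7.29%, 8.47%, 6.99% and 9.09%. A share of at least 10% was found in 17, 63, 15 and 116 of 2226, 2443, 2691 and 3612 such nuclei, at a median depth that differed between libraries. The highest share of any nucleus was 14.3%, 25.1%, 15.8% and 18.9%, and 0 nuclei reached 50% in each library. A mean Ryr2-poor nucleus held 24.4, 12.9, 27.4 and 18.6 Myh6 UMIs, while the median Ryr2-rich nucleus held 2, 1, 3 and 2 Myh7 UMIs. With so much free Myh6 RNA, a nucleus with mainly Myh7 of its own could stay under 50%. These shares thus cannot show whether such nuclei exist. The 5% of Ryr2-rich nuclei with the most Myh7 held 19.3% to 22.1% of its UMIs, and those with the most Myh6 held 13.3% to 16.4% of the Myh6 UMIs.

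Mhrt took 78.4%, 80.7%, 79.5% and 77.7% of the Mhrt and Myh7 UMIs, with means of 79.6% ± 1.63 and 78.6% ± 1.26 (SD, n = 2; exact permutation test, p = 0.6667, adjusted p = 0.9333). In Ryr2-poor nuclei the share was 80.1%, 77.4%, 78.7% and 69.1%. RVVO 2 was lowest there, with a Wilson interval of 65.7% to 72.4% that lay below its share in Ryr2-rich nuclei. At 2000 UMIs per nucleus, Mhrt was found in 93.7%, 94.5%, 96.0% and 92.5% of Ryr2-rich nuclei with a Myh7 UMI. In those without one it was found in 89.7%, 92.5%, 92.5% and 89.8%. These are descriptions over nuclei that share a library, and at 1000 UMIs RVVO 1 showed the opposite order, with 76.4% and 78.3%.

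Myh7b made up 1.69%, 2.80%, 2.12% and 2.65% of the Myh7b and Myh6 UMIs, with both RVVO libraries between the sham libraries. Tnni1 made up at most 0.0128% of the Tnni1 and Tnni3 UMIs in any library. Acta1 made up 0.572%, 0.694%, 0.680% and 0.213% of the Acta1 and Actc1 UMIs. RVVO 2 stood apart, with a Wilson interval of 0.158% to 0.288%, and its Ryr2-poor nuclei were also lowest, at 0.252% against 0.784%, 0.730% and 0.806%. RVVO 1 lay within the range of the sham libraries, so the groups overlapped (exact permutation test, p = 0.6667). After subtraction of the mean UMIs per Ryr2-poor nucleus the Acta1 share was 0.0748%, 0.659%, 0.526% and 0.159%. Sham 1 and not RVVO 2 was then lowest. Sham 1 had 0.0307 Acta1 UMIs per Ryr2-rich nucleus, from 71 UMIs, and nearly as many, 0.0295, per Ryr2-poor nucleus. On so few UMIs this difference cannot be told from counting error, so the order of the libraries after subtraction is uncertain.

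Myl7 made up 0.0173%, 1.2%, 0.310% and 1.94% of the Myl7 and Myl2 UMIs. Myl4 made up 0.142%, 3.94%, 1.58% and 4.44% of the Myl4 and Myl3 UMIs. In both, the order from highest to lowest was RVVO 2, sham 2, RVVO 1 and sham 1, and the spread within each group exceeded the difference between the group means of 0.52 and 0.97 percentage points (exact permutation test, p = 0.6667 for each). Over the 7 shares, the groups overlapped in all, with exact permutation p of 0.6667 for 5 shares and 1 for 2.

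**Figure D4:**
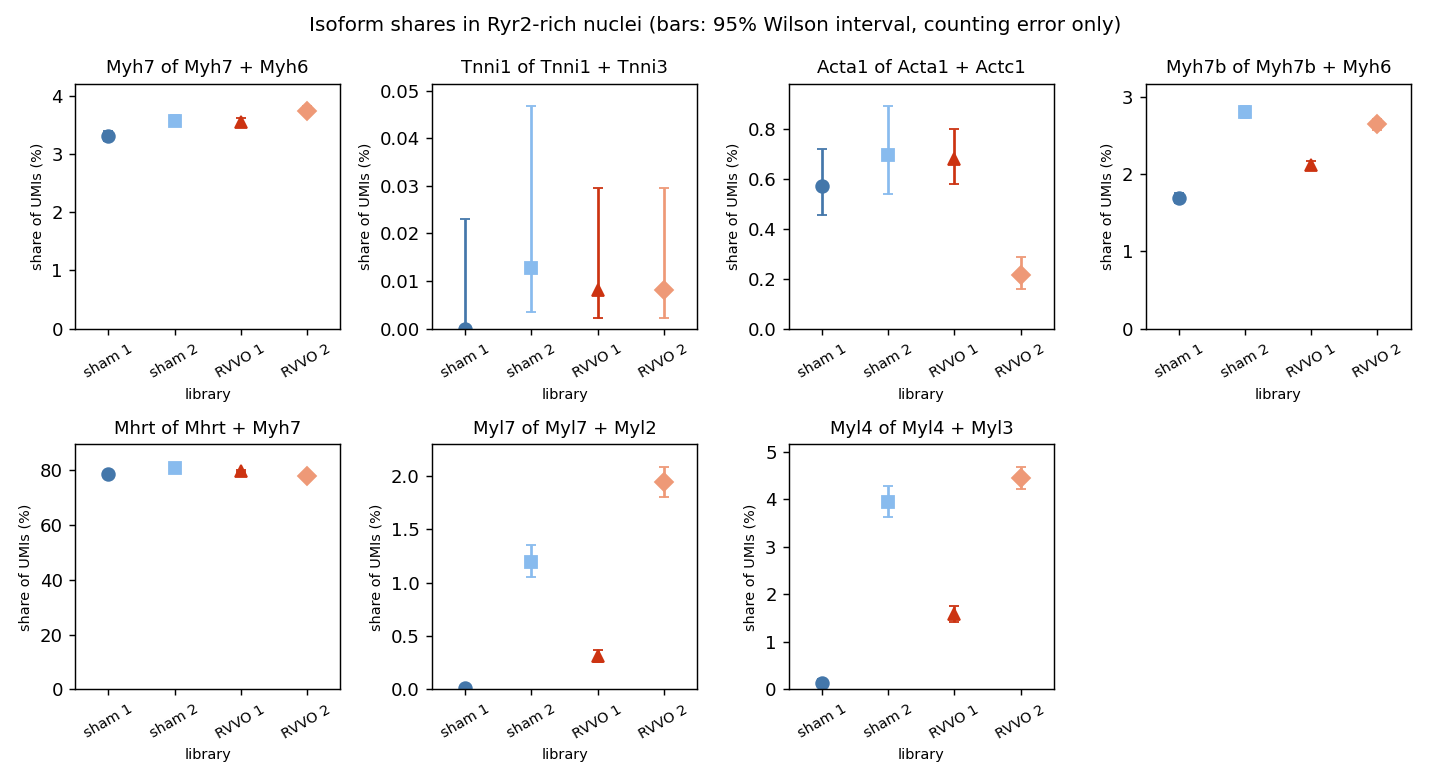
Isoform shares (% of the UMIs of each pair) in Ryr2-rich nuclei, 1 point per library with its 95% Wilson interval, each panel with its own axis from 0. The Myh7 share stays between 3.30% and 3.75%, the Acta1 share is lowest in RVVO 2 at 0.213%, and the Myl7 and Myl4 shares alternate between low and high libraries within both groups.

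The atrial light chains moved between libraries together with other atrial genes. Nppa, the atrial natriuretic peptide gene, had 4.0, 54.5, 17.2 and 168 CPM in Ryr2-rich nuclei, and Sln, the sarcolipin gene, had 0.154, 8.86, 1.45 and 16.9 CPM. Bmp10, an atrial growth factor gene, was at 0 UMIs in sham 1 and RVVO 1 and had 5 and 89 UMIs in sham 2 and RVVO 2. Dkk3 had 0.847, 16.0, 4.24 and 16.9 CPM, so 3 of the 5 atrial markers (Nppa, Sln and Dkk3) had the order of Myl7. Kcnj3, the other marker, had 435, 338, 341 and 246 CPM and did not follow, and it set the sum over the list, which was 440, 418, 364 and 452 CPM. In Ryr2-poor nuclei Nppa had 9.20, 106, 36.9 and 275 CPM, Sln 0, 13.1, 2.19 and 25.7 CPM and Dkk3 17.4, 37.1, 18.1 and 38.0 CPM. Their order was thus the same outside Ryr2-rich nuclei, at higher levels apart from Sln in sham 1. Bmp10 had 0, 1, 2 and 71 UMIs in Ryr2-poor nuclei, and Kcnj3 was lower there, at 22.5 to 38.0 CPM. The part of atrial tissue in the levels of Myl7 and Myl4 was not tested, and fewer cells and less RNA per cell cannot be told apart in such sums.

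The Myl4 UMIs were spread unevenly over nuclei. At least 5 Myl4 UMIs, a limit chosen after seeing the values, were found in 0, 11, 10 and 34 Ryr2-rich nuclei. In sham 2, RVVO 1 and RVVO 2 these were 0.393%, 0.370% and 0.917% of the Ryr2-rich nuclei. They held 18.6%, 22.1% and 17.2% of the Myl4 UMIs, and the rest lay in nuclei with fewer. No Ryr2-rich nucleus had more than 7 Myl7 UMIs, whereas a Ryr2-poor nucleus of RVVO 2 had 13. In the 11, 10 and 34 nuclei Myl7 had 139, 121 and 115 CPM, against 14.5, 3.18 and 31.4 CPM in the other Ryr2-rich nuclei. Myl2 was lower in the 11, 10 and 34 nuclei, at 473, 697 and 1182 CPM, against 1256, 1192 and 1633 CPM in the others. The Myh7 share of Myh6 and Myh7 UMIs was 3.26%, 3.62% and 4.80% in the 11, 10 and 34 nuclei, against 3.57%, 3.55% and 3.74%. With 27, 57 and 100 Myh7 UMIs behind them, these shares are given as a description.

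In the test across all genes no member passed in Ryr2-rich nuclei. Of 14680 genes tested with edgeR's quasi-likelihood test, 7 passed an adjusted p of 0.05, which is 0.0477%, and 1113, or 7.58%, had an unadjusted p under 0.05. Without RVVO 2 the count of genes called was 11, and without any other library it was 6 or 7. Of the 10 members 9 passed the filter on low counts and 0 were called, 0 had an unadjusted p under 0.05, and DESeq2 also called 0 of them. Tnni1 did not pass the filter. The groups overlapped in CPM for all 9, against 40.5% of all genes in which they did not overlap. The median log2 fold change of the 9, RVVO over sham, was -0.10, beside 0.00 for all genes tested.

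Myh7 had a log2 fold change of -0.10 with a 95% interval of -0.40 to 0.21 (edgeR, adjusted p = 0.892), and Myh6 one of -0.19 with an interval of -0.59 to 0.21 (edgeR, adjusted p = 0.818). The upper end of 0.21 for Myh7 rests on edgeR's scaling and on this choice of nuclei. The scaling factors were 0.960 and 0.958 in the sham and 1.06 and 1.025 in the RVVO libraries. Without this scaling the mean Myh7 level had the other direction, with 387 CPM in sham and 393 CPM in RVVO. Mhrt was at -0.18, with an interval of -0.50 to 0.15, and Myh7b at -0.08, with an interval of -0.56 to 0.40. Tnni3 had the lowest p of the members, with a log2 fold change of -0.32 and an interval of -0.88 to 0.24 (edgeR, adjusted p = 0.777). The interval of Actc1 was -0.75 to 0.74 around a value of 0.00, and that of Acta1 was -1.79 to 0.68 around -0.56. Myl7 and Myl4 had the widest intervals, -2.66 to 4.83 around 1.08 and -2.35 to 4.05 around 0.85, so for these genes even large changes could not be told from none. Without RVVO 2 their log2 fold changes were -1.23 and -0.79, and without sham 2 they were 5.73 and 4.16, so single libraries set both the sign and the size.

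The direction of the small differences depended on which nuclei were counted. When Ryr2-rich nuclei with at least 3 UMIs of endothelial, fibroblast or macrophage markers were left out, an alternative added after seeing the data, Myh7 had a log2 fold change of 0.07, Myh7b of 0.05 and Actc1 of 0.14, and 0 members were called. With Ryr2 at 2% or more, Myh7 was at 0.11 and its share of the pair did not overlap between the groups, at 3.13% and 3.51% in the sham libraries and 3.63% and 3.88% in the RVVO libraries. With Ryr2 at 0.5% or more the shares were 3.10% and 3.43% against 3.51% and 3.66%. The groups also did not overlap after thinning to 1000 UMIs (2.80% and 3.20% against 3.37% and 3.43%), as a mean over nuclei (2.88% and 3.23% against 3.38% and 3.63%) and without the nuclei with other markers (3.28% and 3.5% against 3.55% and 3.77%). The overlap of the Myh7 share was thus lost in 5 of the 8 alternatives that kept all libraries, with RVVO higher and an exact permutation p of 0.3333, the smallest it can be. It remained without doublet removal, under 5% mitochondrial UMIs and after subtraction of free RNA.

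In Ryr2-poor nuclei 15999 genes were tested with edgeR, 6 were called, which is 0.0375%, and 1371, or 8.57%, had an unadjusted p under 0.05. All 10 members passed the filter there, 0 were called by edgeR or DESeq2, and 0 had an unadjusted p under 0.05. Without sham 2 the count of all genes called was 25, and without RVVO 1 it was 0, with 1168 at an unadjusted p under 0.05. The members' median log2 fold change was -0.27, beside 0.00 for all genes. Myh6 had -0.41 with an interval of -1.15 to 0.32, Tnni3 -0.28 with an interval of -1.0 to 0.43 and Myh7 -0.09 with an interval of -0.48 to 0.30. The test of whether the change differed between the 2 kinds of nuclei covered 16519 genes and called 0 of them in edgeR, with 1110, or 6.72%, at an unadjusted p under 0.05. No other tool was run for it. The counts simulated for it had the same dispersion in all genes, so the rates found need not hold for the members. In them the test called 21.4% of changes of 1 and 93% of changes of 2 on the log2 scale. Without RVVO 2 it called 445 genes, none of them a member, and without RVVO 1 it called 1. With all libraries it called 0 of 10 members, with 0 at an unadjusted p under 0.05 and differences of 0.21 for Myh6, 0.03 for Myh7 and -0.06 for Tnni3 on the log2 scale (edgeR, adjusted p = 0.869, 0.983 and 0.967).

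**Figure D5:**
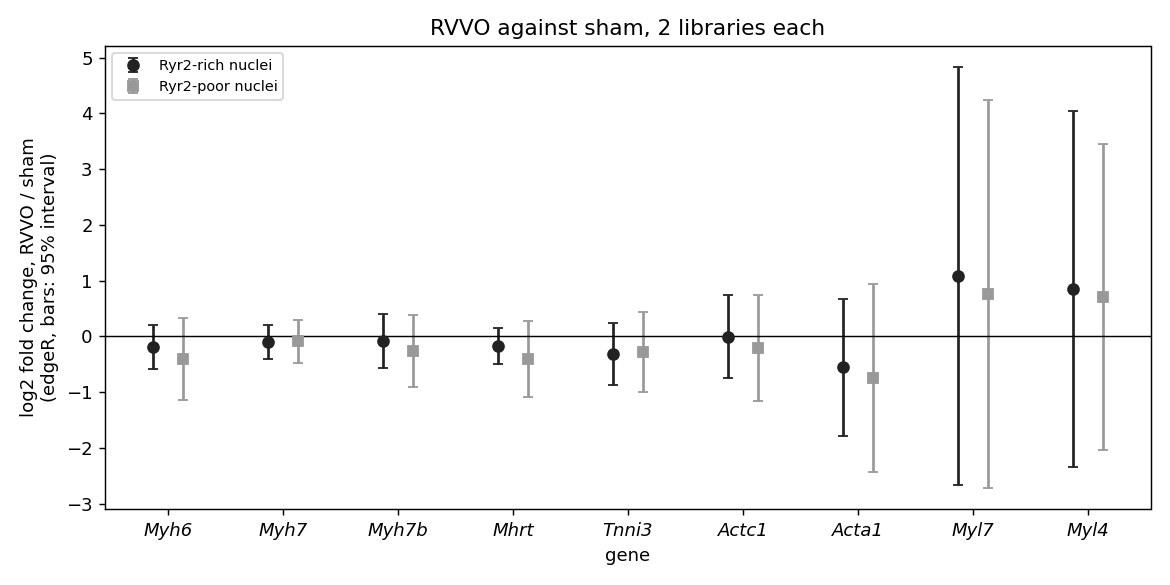
Log2 fold change of RVVO over sham (edgeR, bars are 95% intervals, 2 libraries per group) for the 9 members tested in Ryr2-rich nuclei, with the values in Ryr2-poor nuclei beside them. All intervals include 0, from the narrow ones of Myh7 (-0.40 to 0.21) and Mhrt to those of Myl7 (-2.66 to 4.83) and Myl4.

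Other sarcomere genes were read from the same fit. Of a list of 26, 19 passed the filter in Ryr2-rich nuclei, and 0 were called by edgeR in either direction, with 3 at an unadjusted p under 0.05. Their median log2 fold change was -0.20, beside 0.00 for all genes, and the groups did not overlap for 6 of the 19, against 40.5% of all genes. The lowest p was that of Actn2, the alpha actinin of the Z disc, with 2391, 2452, 1321 and 1492 CPM and a log2 fold change of -0.90 (edgeR, adjusted p = 0.598). Mylk3, the cardiac myosin light chain kinase gene, had 474, 454, 371 and 354 CPM, and Tnnt1, the slow skeletal troponin T gene, 10.2, 9.92, 5.85 and 6.53 CPM. In these 3 genes both RVVO libraries were lower than both sham libraries, and none passed edgeR's adjusted test. Actn2 passed in DESeq2 and, with no filter on low counts, in edgeR (adjusted p = 0.00246 and 0.011). The summed CM markers, of which Actn2 is one, were lower in both RVVO libraries, at 47182 and 48638 CPM against 40824 and 43124 CPM. Within this sum Ttn, Actn2, Cacna1c and Rbm20 were lower in both RVVO libraries, and Tnnt2, Pln and Myom1 overlapped between the groups. Mybpc3 went the other way, at 362 and 399 CPM in the sham and 433 and 482 CPM in the RVVO libraries.

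Of 17 known regulators of myosin genes, such as the thyroid hormone receptors, TEAD1, MEF2 and GATA4, all were tested. The test called 0 in edgeR and 0 in DESeq2, and 0 had an unadjusted p under 0.05, with a median log2 fold change of -0.09. The groups did not overlap for 6 of the 17, beside the 40.5% of all genes. The lowest p was that of Mef2d, with 193, 218, 173 and 194 CPM and a log2 fold change of -0.28 (edgeR, adjusted p = 0.694). Mef2a and Gata4, the next by p, had log2 fold changes of -0.21 and -0.26 (edgeR, adjusted p = 0.719 and 0.728).

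The genes with the most similar pattern were sought over 20 sums, those of 5 kinds of nuclei in 4 libraries, by Pearson's r of log2(CPM + 1) among 9766 genes. The sums share libraries and depth, so the values are descriptions. Nearest to Myh7 were Fhod3 (0.994), Trim55 (0.993) and Dhrs11 (0.992). Nearest to Myh6 were Rpl3l (0.968), Ckmt2 (0.962) and Myom1 (0.959). Tnni3 was nearest to Myl2 (0.986), Atp5l (0.981) and Ndufb5 (0.977), and Actc1 to Eno3 (0.963), Ckm (0.937) and Tpm1 (0.908). Myl7 was nearest to Myl4 (0.973) and Nppa (0.972), followed by C3 (0.850). Neither Myh7 nor Myh6 was among the 3 genes nearest to the other.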

How the data were processed

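Single-nucleus RNA libraries of P21 RVs (2 sham, 2 RVVO) were analysed from the matrices the authors deposited, in which each value is a raw UMI count of 1 gene in 1 barcode. The matrix headers name Cell Ranger 5.0.0, whereas the submitters' processing notes list Cell Ranger 3.0.1, STAR, Seurat 3.0.2 and the builds GRCm38 and mm10. Neither source states whether introns or strand were used in counting. Intronic or antisense reads, if counted, would add to the counts of long genes.

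Barcodes needed 200 genes or more and a mitochondrial share of UMIs under 10%, and the highest doublet scores, from simulated doublets, were removed at 0.8% per 1000 barcodes. This left 43139 of 53090 barcodes. Nuclei were thinned to 1000 or 2000 UMIs for shares of nuclei with a UMI. Marker nuclei were Ryr2-poor nuclei with at least 3 UMIs of 1 lineage's markers and more of it than of any other. Total counts were 51010039 to 64739206 UMIs per library, so levels of the abundant members carry little counting error and those of Tnni1, Acta1 and Myl7 in sham 1 a large one.

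Counts were summed per library and tested with edgeR 4.0.16 in R 4.3.3 (TMM, filterByExpr, glmQLFit, Benjamini-Hochberg over all genes tested), with DESeq2 1.42.0 as an alternative. The interaction fit had library as a covariate. Shares were compared by exact permutation tests over libraries (scipy 1.17.1, Python 3.11.15, 6 arrangements). The edgeR fits, but not the permutation tests, were also run on simulated counts with known changes and the same dispersion for all genes. Alternatives were no filter, RLE scaling, other Ryr2 and mitochondrial limits, no doublet removal, thinning, subtraction of free RNA, averaging over nuclei with at least 5 UMIs of a pair, the replicate number as a block and the omission of single libraries. Positions came from the GENCODE annotation of GRCm38, which held 27645 of 27998 identifiers (98.7%).

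The members, gene lists and limits were chosen with earlier results of these data known. Named genes were the members, Ryr2, Myl2, Myl3, up to 3 genes of lowest p per list, the 3 nearest genes by correlation of 5 members, cell type markers, and the sex genes.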

Additional observations from a re-analysis of the deposited data

How the results depend on the processing

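The count of members called was 0 under all 14 alternatives run. The replicate numbers 1 and 2 of the groups share only a number (Pearson's r = 0.115 between the differences of the numbered libraries over 14680 genes). With them as a block, 7 genes were called in Ryr2-rich nuclei, 11 in Ryr2-poor nuclei and 0 members. In Ryr2-rich nuclei Actc1 then had a log2 fold change of 0.0398. Myl7 and Myl4 had unadjusted p of 0.0218 and 0.0209 there in edgeR, at values of 1.63 and 1.42. They were 2 of 9 members under 0.05, beside 1338 of the 14680 genes tested. Both genes were lower in replicate 1 than in replicate 2 of each group, the pattern that this block takes out. In Ryr2-poor nuclei 4 of 10 members (Acta1, Mhrt, Myl7 and Myl4) had an unadjusted p under 0.05 in edgeR with the block, beside 1581 of the 15999 genes tested. DESeq2 called 105 genes in Ryr2-rich and 240 in Ryr2-poor nuclei, and edgeR without a filter on low counts 110 in Ryr2-rich nuclei. The cause was not tested.

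Of 90 member fold changes under alternatives that left no library out, 13 changed sign, none past the threshold. With Ryr2 at 2% or more, Myh7, Myh7b, Mhrt and Actc1 were at 0.11, 0.086, 0.0039 and 0.060. Without doublet removal Myh7 and Actc1 were at 0.013 and 0.088. Thinned to 1000 UMIs, Myh7, Myh7b and Actc1 were at 0.082, 0.026 and 0.054. Without nuclei that held markers of another lineage they were at 0.072, 0.049 and 0.14. The Tnni1 share, on 6 UMIs in all, differed by -0.0073 percentage points with Ryr2 at 2% or more, 0 after thinning, -6.06e-05 without the nuclei with other markers and -0.0013 as a mean over nuclei. Subtraction of free RNA gave no Tnni1 share in 3 libraries and no Myl7 share in 3 and no Myl4 share in sham 1, where the Ryr2-poor level was the higher.

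Leaving out 1 library at a time leaves a lone library in a group, which is assumed to vary like the others. It gave 6 to 11 calls in Ryr2-rich nuclei, 0 to 25 in Ryr2-poor nuclei and 0 to 445 in the test of the difference. The log2 fold changes ran from -0.30 to 0.17 for Myh7b, -0.36 to 0.46 for Actc1, -1.23 to 5.73 for Myl7 and -0.79 to 4.16 for Myl4. Differences in shares ran, in percentage points, from 0.08 to 0.35 for Myh7, -0.0047 to 0.0081 for Tnni1, -0.42 to 0.047 for Acta1, -0.42 to 0.69 for Myh7b, -2.10 to 0.20 for Mhrt, -0.30 to 1.33 for Myl7 and -0.93 to 2.87 for Myl4. Of the 7 shares, only that of Myh7 kept its direction under every alternative run. With 2 libraries a group, depth was not the limit for Myh6, Myh7, Mhrt, Tnni3 or Actc1, whose counting error was below the spread between libraries, whereas Tnni1 and Acta1 rested on few UMIs.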

Other observations

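Genes of the skeletal and embryonic sarcomere were close to absent from the Ryr2-rich nuclei of all 4 libraries. Myh3, the embryonic myosin heavy chain gene, had 1, 0, 0 and 2 UMIs in sham 1, sham 2, RVVO 1 and RVVO 2, and Myh8, the perinatal one, had 0, 0, 0 and 1. Tnni2, the fast skeletal troponin I gene, had 2, 6, 6 and 2 UMIs, and Tnnc2, the fast troponin C gene, had 1 UMI, in RVVO 1. Tnnt3, the fast troponin T gene, had 0, 1, 12 and 1 UMIs. Tnnt1, the slow form, was better counted, with 132, 159, 174 and 143 UMIs. These values stand beside the 44006 to 78027 UMIs of Tnnt2, the cardiac troponin T gene, in the same nuclei.

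Mybphl, which is known for its expression in atria, had 1, 145, 64 and 273 UMIs, the library order of Myl7 and Myl4 in raw UMIs and in CPM (0.077, 9.05, 2.15 and 12.5). Myl1, the fast skeletal light chain gene, had 6.77, 6.18, 4.91 and 5.80 CPM and did not have that order.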
